A study of Arabidopsis thaliana with 12 samples.

Results

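The UDP-glycosyltransferases are the plant enzymes that attach a sugar from a nucleotide donor, mostly UDP-glucose, to hormones, defense compounds, cell wall precursors and pigments. A conjugated molecule is usually more soluble, can be stored in the vacuole and is often inactive until the sugar is removed, so the family sets how much of a hormone or defense compound is free. Most members share a conserved stretch near the C-terminal end that binds the nucleotide sugar, the plant secondary product glycosyltransferase box (PSPG box), and many lie next to close relatives on the chromosome. In leaves the family is known for the conjugation of salicylate, jasmonate and abscisic acid derivatives and for steps of glucosinolate and phenylpropanoid synthesis.

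Members were the genes whose function text in the deposited count table contains UDP-glucosyl transferase or UDP-glycosyltransferase, without the anthocyanin and flavonol glycosyltransferases UGT79B1, UGT75C1, UGT78D2 and UGT78D1. The rule found 126 of 33323 genes. It used no measured value. The text is broad: 82 members carry only the general superfamily wording. Of 125 members with a RefSeq protein, 100 match a loose sequence pattern for the core of the PSPG box and 25 do not. The 25 include GBSS1, the starch granule enzyme that makes amylose, DGD1, which makes a galactolipid of chloroplast membranes, TPS6, a trehalose phosphate synthase relative, and LEW3 and SETH2, enzymes of protein glycosylation and of membrane anchors. They are kept as members by the rule. Among the members described below, GBSS1, DGD1, UGT80A2, UGT80B1, AT1G78800, AT2G30150, AT4G09500 and AT5G59070 do not match the pattern. Failing the pattern does not show that a protein lacks the box. AT2G30150 fails it but is 75.7% identical in protein to its neighbour UGT87A2, which matches. Below, with or without the box means with or without a match to this pattern. Conversely 6 known glycosyltransferases, among them UGT74F2, UGT74E2 and UGT73C5, are worded otherwise and are not members.

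RNA came from whole rosettes, without roots, of Arabidopsis thaliana in 4 genotypes of 3 libraries each, with about 20 plants pooled per library. The wild type was Col-0. The mutant cdk8-1 carries a mutation in CDK8, the kinase of the Mediator complex that links transcription factors to RNA polymerase II. The mutant jazD combines mutations in most JAZ genes, whose proteins repress jasmonate-responsive transcription, and jazDcdk8-1 carries both sets of mutations. Plants of every genotype spent 18 days on peat pellets and then for 7 more in soil, with 16 h of light at 20 °C, in a shared tray. Each library is a pool, so a test measures the spread between pools and not between plants. In whole rosettes, fewer cells of a type and less RNA per cell cannot be told apart.

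Library totals ran from 17583467 to 21030374 counts, and 19059 genes passed the filter on low counts. CDK8 stood at 17.4, 18.6 and 20.3 CPM (a count scaled to library size) for Col-0 and at 2.29, 2.74 and 2.64 for cdk8-1. In jazD its 3 values were 21.1, 20.1 and 20.1 CPM, and in jazDcdk8-1 they were 2.73, 3.3 and 3.29, so the transcript was low in both genotypes labelled cdk8-1. The 5 leaf markers summed to 55643 to 69987 TPM (a level corrected for gene length) per library, lowest in jazD. None of 5 root markers and none of 5 flower markers reached 1 TPM in any genotype. Their part in the results below was not tested.

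The sequences that follow are the 250 bases before the annotated start of 7 members, in RefSeq TAIR10.1 coordinates, read on the gene's own strand. UGT71C3, UGT72E1 and UGT71B5 are shown because they rose far in jazD and were back near the Col-0 level in jazDcdk8-1. UGT85A4 and AT4G15260 are shown because they are the 2 members of 126 with a GCC-box, the site of ethylene response factors. UGT76E1 and UGT85A3 are shown because each has a G-box, the site of MYC factors, the first called higher in jazD and the second in both genotypes labelled cdk8-1; both were chosen after their values were seen, among 11 members with that site. Capitals mark a G-box (CACGTG) or a GCC-box, which reads GGCGGC here because it lies on the other strand (GCCGCC).
UGT71C3 (chr1:2229358-2229607, minus strand): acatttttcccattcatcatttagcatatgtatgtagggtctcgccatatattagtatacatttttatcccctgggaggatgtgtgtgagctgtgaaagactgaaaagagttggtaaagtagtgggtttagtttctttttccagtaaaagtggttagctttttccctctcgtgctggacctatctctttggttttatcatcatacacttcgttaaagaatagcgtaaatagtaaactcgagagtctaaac
UGT72E1 (chr3:18857041-18857290, minus strand): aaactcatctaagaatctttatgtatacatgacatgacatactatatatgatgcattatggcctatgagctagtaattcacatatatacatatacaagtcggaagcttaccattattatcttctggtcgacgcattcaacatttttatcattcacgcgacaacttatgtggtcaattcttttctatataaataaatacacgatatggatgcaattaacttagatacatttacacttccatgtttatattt
UGT71B5 (chr4:8718772-8719021, plus strand): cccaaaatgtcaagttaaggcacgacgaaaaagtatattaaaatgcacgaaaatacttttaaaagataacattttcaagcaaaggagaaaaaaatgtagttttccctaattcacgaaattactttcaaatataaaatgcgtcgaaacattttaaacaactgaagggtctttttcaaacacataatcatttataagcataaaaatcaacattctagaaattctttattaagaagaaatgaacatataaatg
UGT85A4 (chr1:29452418-29452667, minus strand): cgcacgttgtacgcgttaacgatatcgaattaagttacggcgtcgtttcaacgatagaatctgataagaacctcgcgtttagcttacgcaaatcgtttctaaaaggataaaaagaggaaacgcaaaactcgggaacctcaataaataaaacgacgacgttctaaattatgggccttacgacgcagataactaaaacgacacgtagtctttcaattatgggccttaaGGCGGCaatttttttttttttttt
AT4G15260 (chr4:8713439-8713688, plus strand): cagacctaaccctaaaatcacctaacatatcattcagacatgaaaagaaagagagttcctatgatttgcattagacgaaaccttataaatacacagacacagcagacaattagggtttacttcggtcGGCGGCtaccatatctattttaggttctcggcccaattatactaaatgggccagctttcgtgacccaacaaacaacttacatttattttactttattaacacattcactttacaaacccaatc
UGT76E1 (chr5:24007908-24008157, minus strand): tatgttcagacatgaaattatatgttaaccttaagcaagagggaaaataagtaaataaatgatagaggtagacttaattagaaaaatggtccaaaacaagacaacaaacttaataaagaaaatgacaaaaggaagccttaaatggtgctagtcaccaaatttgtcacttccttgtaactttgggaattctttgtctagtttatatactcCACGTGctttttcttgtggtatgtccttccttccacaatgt
UGT85A3 (chr1:7902428-7902677, minus strand): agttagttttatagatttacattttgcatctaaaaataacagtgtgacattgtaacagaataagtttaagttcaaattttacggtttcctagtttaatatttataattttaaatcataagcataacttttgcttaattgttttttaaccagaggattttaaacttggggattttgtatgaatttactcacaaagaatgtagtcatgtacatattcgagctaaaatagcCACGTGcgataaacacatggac

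The G-box of UGT76E1 begins 41 bases and that of UGT85A3 22 bases before the annotated start. The GCC-box of AT4G15260 begins 123 bases before the start. UGT85A4 has 1 GCC-box at 24 bases before the start and another 16 bases after it, outside the stretch shown. None of the 7 held TGACG, the core of sites for TGA factors, on either strand. Over windows of 300 bases, which run to 50 bases after the start, a G-box was found in 11 of 126 members (8.73%) and in 7.678% of 27443 protein-coding genes. A GCC-box was found in 1.587% of members and 2.573% of all these genes, and TGACG in 23.016% and 23.066%. Each share in members lay close to that in all genes. Of the 8 tested members with a G-box, 2 were called higher and 0 lower in jazD (all genes tested 21.8% and 20.9%). In cdk8-1 1 was higher and 2 lower (11.7% and 13.8%). In jazDcdk8-1 4 were higher and 0 lower than in Col-0 (16.3% and 16.1%), and 3 higher and 1 lower than in jazD (16.9% and 19.0%). A match is a string of letters and was not tested as a binding site.

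The family took 0.1554% to 0.1697% of the counts in each library. The jazD libraries, at 0.1627% to 0.1697%, lay just above those of Col-0, at 0.1578% to 0.16%. On the TPM scale the family summed to 1019.52 to 1099.86 per library and the genotypes overlapped. Levels of members were uneven: 34 members had a mean above 10 TPM over all libraries and 55 a mean below 1 TPM, and the 10 highest made up 45.1% of the family's TPM. UGT88A1 was highest, at 158.5 ± 2.82 TPM in Col-0 (SD, n = 3 here and below), 148.1 ± 2.90 in cdk8-1, 107.2 ± 1.90 in jazD and 125.8 ± 4.24 in jazDcdk8-1. On the same TPM scale it was followed by AT2G31790 with a mean of 56.0, UGT72B1 with 50.9 and UGT74B1 with 47.4. The values of UGT72B1 and UGT74B1 are near each other, and in jazD their ranges of 44.8 ± 1.90 and 49 ± 2.66 TPM did not put one clearly above the other. Next came UGT85A2 at 37.6, AT1G06000 at 35.8 and UGT71C4 at 34.1, and AT4G27560, DGD1 and UGT72E1 closed the group of 10 at 27.9, 27.5 and 26.1. UGT84A2, just outside it, also had 26.1, and the mean of UGT72E1 rests on jazD, where it had 61.2 TPM.

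Of the 126 members 86 had enough counts to be tested and 40 did not, 7 of the latter with 0 counts in every library. A member may have passed only through the genotype in which it is high, so counts over the 86 describe those genes and not the family. A gene was called when its adjusted p was below 0.05 in edgeR's quasi-likelihood test, adjusted over all genes tested by Benjamini and Hochberg.

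In jazD more tested members were called higher than lower, 25 and 16 of 63 with the box and 8 and 4 of 23 without it. Of 86 members 33 were called higher and 20 lower in jazD than in Col-0, which is 61.6% of them, where 42.8% of all genes tested were called. The higher calls were 38.4% of members beside 21.8% of all genes, and the lower calls 23.3% beside 20.9%. Of the 86, 16 were called at least 2-fold higher (4.29% of all genes tested), and all 16 hold the PSPG box. The median log2 fold change was 0.13 over the 86 and 0.00 over all genes.

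**Figure D1:**
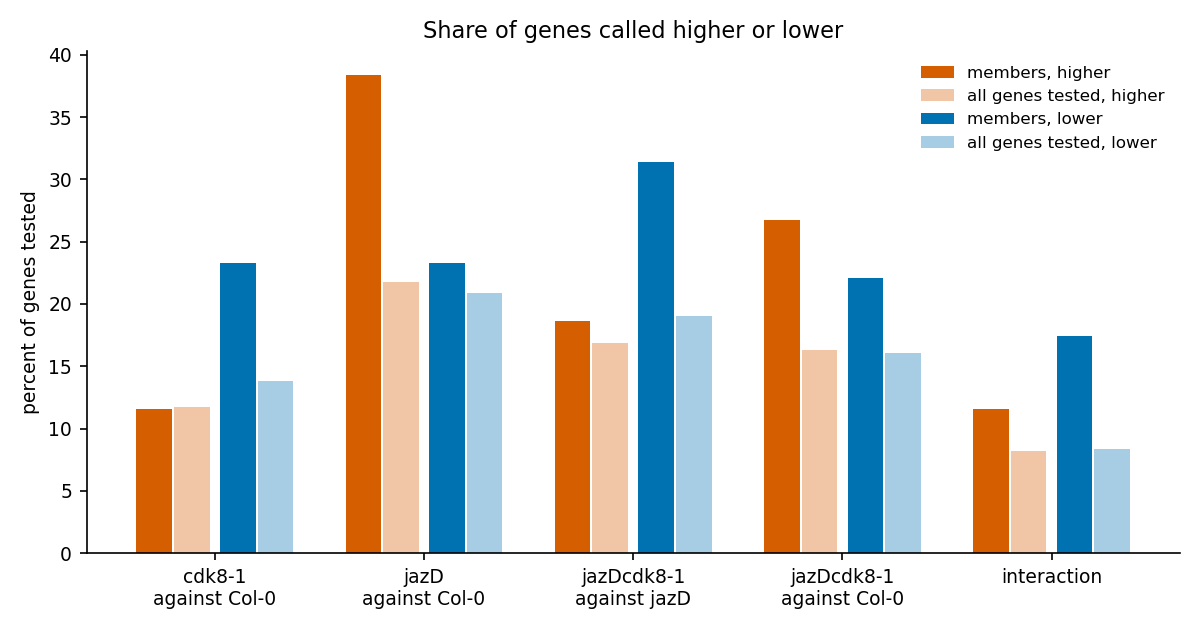
Percent of genes tested that were called higher or lower in each comparison (y axis, adjusted p below 0.05), for the 86 members tested (dark bars) and for all 19059 genes (pale bars). Higher means a positive difference in the interaction, the change from jazD to jazDcdk8-1 minus that from Col-0 to cdk8-1. The widest gap is that of higher calls in jazD, 38.4% of members and 21.8% of all genes.

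UGT71C3, which glucosylates methyl salicylate, showed the largest change of the 86 members tested. It lies on chromosome 1 at 2227594 to 2229357. Col-0 had 1.3, 1.1 and 1.05 CPM of it, and cdk8-1 had 0.649, 0.414 and 0.672. In jazD it had 31.9, 36.2 and 33.6 CPM, and in jazDcdk8-1 1.5, 1.24 and 1.90. The 3 jazD libraries thus stood alone, far above the other 9. From Col-0 to jazD it rose 29.4-fold (log2 4.88 ± 0.13, SE; adjusted p = 5.48e-18). From jazD to jazDcdk8-1 it fell by 4.44 ± 0.12 on the log2 scale (adjusted p = 3.47e-17), and jazDcdk8-1 did not differ from Col-0 by the test (0.43 ± 0.21, adjusted p = 0.131). In cdk8-1 alone it fell by 0.98 ± 0.26 (adjusted p = 0.00874), a call lost without cdk8-1 replicate 2 (-0.79, adjusted p = 0.0523). The fall through cdk8-1 was 11.1-fold larger in jazD than in the wild type background (difference of log2 changes -3.47 ± 0.34, adjusted p = 3.5e-07).

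UGT72E1, which glucosylates the lignin precursors coniferyl and sinapyl aldehyde, lies on chromosome 3 at 18855043 to 18857040 and is an abundant member. It had 23.4, 24 and 23.4 CPM in Col-0, 12, 9.77 and 11 in cdk8-1, 96.8, 99.2 and 90.8 in jazD and 26.1, 29.3 and 26.4 in jazDcdk8-1. No 2 genotypes overlapped. The rise in jazD was 4.06-fold (2.02 ± 0.06, adjusted p = 1.15e-16) and the fall from jazD to jazDcdk8-1 was 3.5-fold (-1.81 ± 0.06, adjusted p = 1.57e-15). Unlike UGT71C3 it also fell more than 2-fold in cdk8-1 alone (-1.11 ± 0.08, adjusted p = 6.94e-10), and the difference between the falls was smaller (-0.70 ± 0.10, adjusted p = 4.13e-05). Its level in jazDcdk8-1 was called slightly above Col-0 (0.21 ± 0.07, adjusted p = 0.0196), a call lost without Col-0 replicate 1 (adjusted p = 0.0602), Col-0 replicate 3 (0.0604) or jazDcdk8-1 replicate 2 (0.129). Its relatives UGT72E2 and UGT72E3, for monolignols, had too few counts to be tested. The summed counts of UGT72E2 were 10, 4, 38 and 1 for Col-0, cdk8-1, jazD and jazDcdk8-1, and those of UGT72E3 were 1, 1, 1 and 0.

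**Figure D2:**
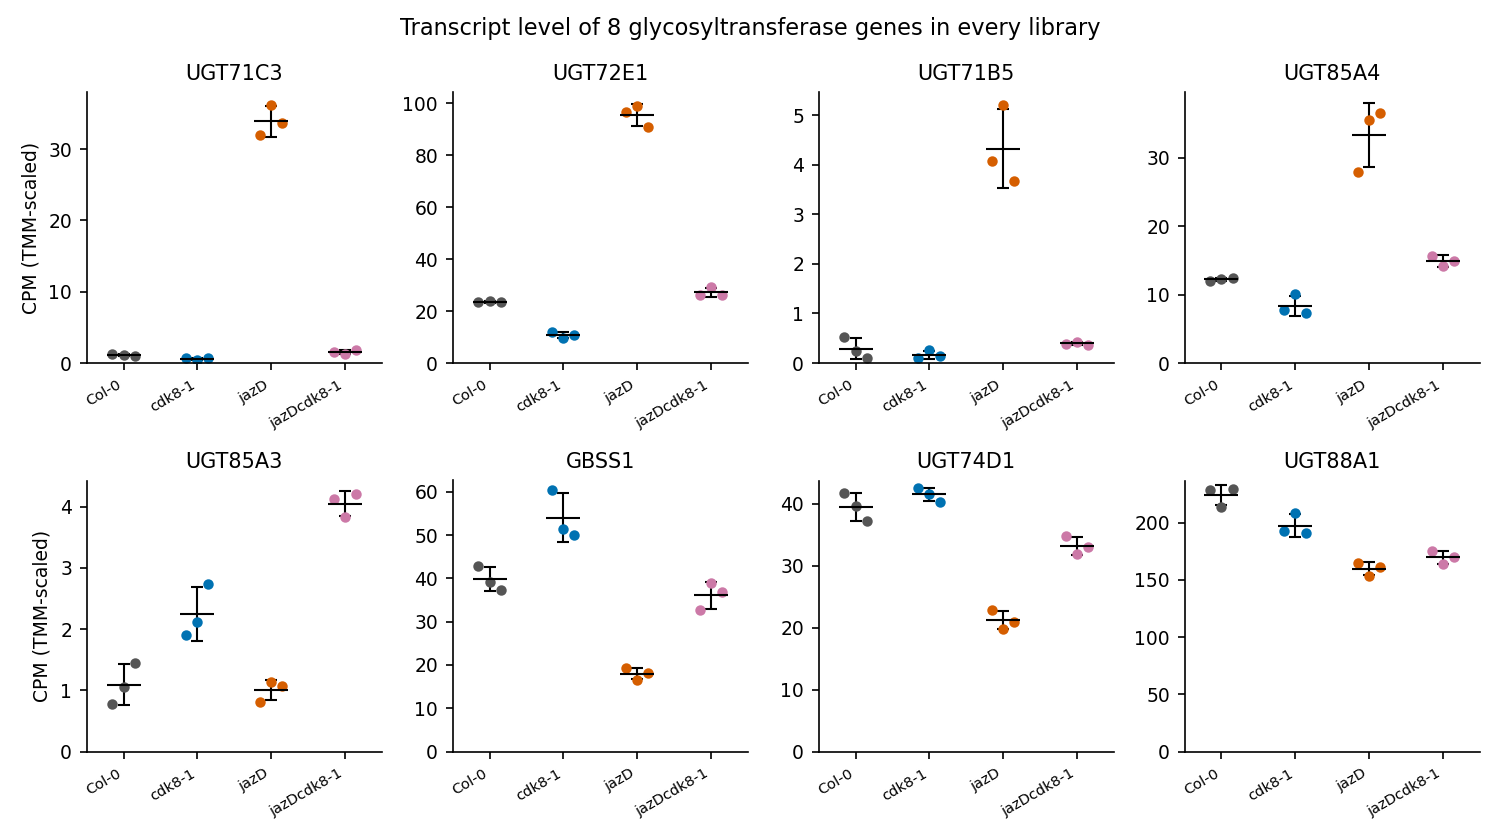
CPM in every library (points), with mean and SD over 3 libraries (bars), for 8 members in the 4 genotypes. Each panel has its own linear axis from 0. UGT71C3, UGT72E1, UGT71B5 and UGT85A4 are highest in jazD, GBSS1 and UGT74D1 are lowest in jazD, and UGT85A3 is highest in jazDcdk8-1.

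UGT71B5 and AT4G15260 are neighbours on chromosome 4 whose proteins, of 510 and 359 residues, are identical at 84.4% of the aligned positions. UGT71B5 had 0.519, 0.251 and 0.1 CPM in Col-0, 0.0998, 0.258 and 0.144 in cdk8-1, 4.08, 5.21 and 3.67 in jazD and 0.389, 0.430 and 0.371 in jazDcdk8-1. It rose 14.8-fold in jazD (3.89 ± 0.32, adjusted p = 2.71e-09) and fell 10.8-fold to jazDcdk8-1 (-3.43 ± 0.30, adjusted p = 1.1e-08). The Col-0 libraries hold 17 counts in all, so these folds rest on few reads. AT4G15260 had 4.72, 4.97 and 5.75 CPM in Col-0, 3.24, 3.77 and 3.36 in cdk8-1, 11.5, 13.7 and 10.1 in jazD and 5.45, 6.03 and 5.56 in jazDcdk8-1. Its rise of 2.29-fold (1.2 ± 0.12, adjusted p = 4.87e-08) and fall of 2.08-fold (-1.05 ± 0.12, adjusted p = 3.5e-07) had the same directions as those of its neighbour, and it is one of the 2 members with a GCC-box.

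The other member with a GCC-box, UGT85A4, lies on chromosome 1 at 29450563 to 29452417. It had 12, 12.3 and 12.4 CPM in Col-0, 7.68, 10.1 and 7.35 in cdk8-1, 27.9, 35.5 and 36.5 in jazD and 15.7, 14.1 and 14.9 in jazDcdk8-1. The jazD libraries were again above all others. It rose 2.72-fold in jazD (1.44 ± 0.10, adjusted p = 1.85e-10), fell 2.23-fold from jazD to jazDcdk8-1 (-1.16 ± 0.10, adjusted p = 6.54e-09) and fell 1.46-fold in cdk8-1 (-0.55 ± 0.12, adjusted p = 0.00157). Its expected counts were not whole numbers in all 12 libraries, which marks reads shared with another gene.

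All 3 members on the salicylate list were called higher in jazD (all genes tested 21.8%) and lower in jazDcdk8-1 than in jazD (19.0%). Both comparisons use the jazD libraries. UGT74F1, which makes the salicylate glucoside, had 0.726, 0.853 and 1.00 CPM in Col-0, 0.948, 0.724 and 0.528 in cdk8-1, 1.31, 1.87 and 1.78 in jazD and 0.111, 0.478 and 0.139 in jazDcdk8-1. It is the only member of the 3 that ended below Col-0 in jazDcdk8-1 by the test (-1.77 ± 0.44, adjusted p = 0.00344), after a fall from jazD of 2.71 ± 0.39 (adjusted p = 1.23e-05). Its rise in jazD (0.94 ± 0.31, adjusted p = 0.0189) was lost without Col-0 replicate 1 or 2 (adjusted p = 0.0689 and 0.0502) or without jazD replicate 2 or 3 (0.0717 and 0.053). UGT76B1, which conjugates salicylate, isoleucic acid and N-hydroxypipecolate, had 0.675, 0.853 and 1.45 CPM in Col-0, 0.0998, 0.103 and 0.240 in cdk8-1, 2.01, 2.95 and 1.42 in jazD and 0.389, 0.0478 and 1.07 in jazDcdk8-1. It fell 6.43-fold in cdk8-1 (-2.69 ± 0.68, adjusted p = 0.00521) and 4.18-fold from jazD to jazDcdk8-1 (-2.06 ± 0.47, adjusted p = 0.00144). Its rise in jazD (1.11 ± 0.41, adjusted p = 0.0357), with overlapping libraries, was lost without Col-0 replicate 1 (adjusted p = 0.13) or 2 (0.107) or jazD replicate 1 (0.057) or 2 (0.186), and with DESeq2 (0.254). UGT74F2, a close relative of UGT74F1 that is no member, had 21.5 ± 1.49 CPM in Col-0 and 27.1 ± 1.67 in jazD, and so was far above UGT74F1 in counts.

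The 3 tested members of the abscisic acid list were called higher in jazD (all genes tested 21.8%). UGT71B6 and UGT71C5 were also called lower in cdk8-1 than in Col-0 (13.8%) and in jazDcdk8-1 than in jazD (19.0%). UGT71B6 had 1.25, 1.2 and 1.00 CPM in Col-0, 0.698, 0.517 and 0.528 in cdk8-1, 4.41, 4.42 and 4.26 in jazD and 1.11, 1.15 and 1.34 in jazDcdk8-1. It rose 3.79-fold in jazD (1.92 ± 0.18, adjusted p = 2.63e-08) and fell 3.61-fold from jazD to jazDcdk8-1 (adjusted p = 5.66e-08). UGT71C5, next to UGT71C3 on the chromosome, had 27.7, 25.7 and 24.3 CPM in Col-0, 19.9, 20.3 and 19.5 in cdk8-1, 40.7, 42.1 and 44.4 in jazD and 26.4, 23.9 and 25 in jazDcdk8-1. Its rise was 1.64-fold and its fall from jazD 1.69-fold. Some reads of UGT71B6 were shared with another gene, since its expected counts were not whole in 5 libraries. AT3G21790, on the list by its locus number and given no role here, had 17 ± 0.686 CPM in Col-0, 16.5 ± 1.93 in cdk8-1, 24 ± 1.59 in jazD and 21.6 ± 0.415 in jazDcdk8-1. It rose 1.41-fold in jazD (adjusted p = 2.36e-05) and was not called in cdk8-1 (adjusted p = 0.714) or between jazD and jazDcdk8-1 (0.12). UGT71B8, also on this list, had 2 counts in all.

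Further members with the box rose at least 2-fold in jazD from low levels, and no role is given for those known only by a locus number. UGT71C2 rose from 0.270 ± 0.0272 to 1.64 ± 0.387 CPM (5.91-fold, adjusted p = 1.28e-05) and stood at 0.387 ± 0.111 in jazDcdk8-1. AT1G05675 rose from 0.993 ± 0.294 to 4.2 ± 1.60 CPM (4.24-fold, adjusted p = 6.58e-06), fell to 0.753 ± 0.175 in jazDcdk8-1 and was 0.165 ± 0.125 in cdk8-1. AT3G46690 rose from 0.219 ± 0.0745 to 1.07 ± 0.653 CPM (adjusted p = 0.000961). UGT73B5, of a group induced by stress, rose from 1.61 ± 0.332 to 4.19 ± 1.16 CPM (2.62-fold, adjusted p = 5.1e-05) and was 1.91 ± 0.583 in jazDcdk8-1. UGT73B4, 91.9% identical to it in protein, was not tested, with summed counts of 6, 3, 45 and 2 for Col-0, cdk8-1, jazD and jazDcdk8-1. The annotated span of UGT73B4, 6761635 to 6763500 on chromosome 2, lies within that of UGT73B5, 6758430 to 6763501. Whether shared sequence adds to the identity, and how reads were divided between these genes, was not tested. The other stress-group members differed from UGT73B5: UGT73B1 was called lower in jazD, with 17.6 ± 2.12 CPM in Col-0 and 11.5 ± 1.69 there (adjusted p = 0.000324), and UGT73B3 had 0.781 ± 0.269 and 1.26 ± 0.498 CPM (adjusted p = 0.093).

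A few members that rose in jazD stayed above Col-0 in jazDcdk8-1. UGT85A2 had 39.1, 40.1 and 35.7 CPM in Col-0, 37.1, 40.4 and 38.9 in cdk8-1, 77.8, 83.7 and 81.4 in jazD and 63.4, 62.1 and 62.9 in jazDcdk8-1. It rose 2.11-fold in jazD (1.08 ± 0.05, adjusted p = 4.67e-13), fell 1.29-fold from there to jazDcdk8-1 (adjusted p = 7.1e-06) and remained 1.64-fold above Col-0 (adjusted p = 1.33e-09). AT4G27560 had 29.2 ± 0.557 CPM in Col-0, 30.1 ± 2.06 in cdk8-1, 55.4 ± 2.81 in jazD and 48.6 ± 1.06 in jazDcdk8-1, and was called higher than Col-0 in both of the latter (1.90-fold and 1.67-fold, adjusted p = 2.89e-11 and 2.77e-09). AT2G29710 had 1.21 ± 0.549, 1.18 ± 0.491, 3.35 ± 0.5 and 2.90 ± 0.204 CPM in the same order, and jazDcdk8-1 did not differ from jazD by the test (adjusted p = 0.506). AT2G36780 had 0.201 ± 0.180 CPM in Col-0, 0.550 ± 0.163 in cdk8-1, 1.59 ± 0.176 in jazD and 0.891 ± 0.127 in jazDcdk8-1, and rose 7.68-fold in jazD (adjusted p = 4.39e-06). Its expected counts were not whole in 7 libraries, which marks reads shared with another gene, as were those of its neighbour AT2G36770, 86.7% identical in protein. The gene it shares them with was not tested.

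UGT76E1, which glucosylates a hydroxylated jasmonate, had 0.675, 0.552 and 0.200 CPM in Col-0, 0.150, 0.207 and 0.192 in cdk8-1, 1.58, 1.08 and 1.18 in jazD and 1.06, 1.15 and 0.509 in jazDcdk8-1. It rose 2.68-fold in jazD (1.42 ± 0.38, adjusted p = 0.0042). The change from jazD to jazDcdk8-1 did not pass the test (-0.51 ± 0.33, adjusted p = 0.254), nor did that in cdk8-1 (-1.34 ± 0.54, adjusted p = 0.0771). Its neighbour UGT76E2 had 0 counts in Col-0 and cdk8-1 and 4 in each of the others. UGT76E11 was called lower in jazD, with 17 ± 0.652 CPM in Col-0 and 13.1 ± 0.532 there (adjusted p = 0.000342), and UGT76E12 was not tested.

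The members lower in jazD included several of the more abundant ones. Of the 86 tested, 2 were called at least 2-fold lower (2.28% of all genes tested) and 16 at least 2-fold higher (4.29%). GBSS1 had 42.9, 39.2 and 37.4 CPM in Col-0, 60.4, 51.5 and 50.1 in cdk8-1, 19.2, 16.6 and 18.1 in jazD and 32.7, 38.9 and 36.8 in jazDcdk8-1. It fell 2.22-fold in jazD (-1.15 ± 0.09, adjusted p = 4.95e-10), rose 2.02-fold from jazD to jazDcdk8-1 (adjusted p = 6.72e-09) and rose 1.36-fold in cdk8-1 (adjusted p = 0.00015). AT3G55710 had 6.59, 5.97 and 6.85 CPM in Col-0, 4.39, 3.67 and 4.23 in cdk8-1, 1.80, 1.82 and 2.31 in jazD and 2.61, 2.58 and 2.27 in jazDcdk8-1. It fell 3.29-fold in jazD (-1.72 ± 0.15, adjusted p = 5.69e-09) and stayed 2.60-fold below Col-0 in jazDcdk8-1 (adjusted p = 1.23e-07), with no call between jazD and jazDcdk8-1 (adjusted p = 0.136).

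UGT74D1, which glucosylates auxin and its oxidized form, had 41.7, 39.6 and 37.2 CPM in Col-0, 42.5, 41.6 and 40.3 in cdk8-1, 22.8, 19.8 and 20.9 in jazD and 34.8, 31.9 and 33.0 in jazDcdk8-1. Only the jazD libraries and, less far, the jazDcdk8-1 libraries lay below Col-0. It fell 1.87-fold in jazD (-0.90 ± 0.06, adjusted p = 2.52e-10) and rose 1.57-fold from jazD to jazDcdk8-1 (adjusted p = 8.15e-08). Its expected counts, too, were not whole numbers in all 12 libraries. Of the other members on the auxin list, AT3G55700 had no call, at 0.242 ± 0.131 to 0.562 ± 0.139 CPM, and UGT84B1 and UGT84B2 had 0 counts in every library. In a single library 0 counts allows a mean of up to 3 at this depth, and 0 in all 12 allows less per library. AT2G31790, on the glucosinolate list by its locus number and given no role here, was likewise called lower in jazD and higher in jazDcdk8-1 than in jazD. It had 86.3 ± 0.972 CPM in Col-0, 87.0 ± 2.30 in cdk8-1, 56.3 ± 2.82 in jazD and 74.7 ± 1.72 in jazDcdk8-1, and remained below Col-0 there (adjusted p = 0.00135). AT5G05890 had the same pair of calls, at 8.56 ± 0.446, 10.2 ± 0.857, 4.68 ± 0.700 and 9.39 ± 0.236 CPM, and in jazDcdk8-1 it was not called against Col-0 (adjusted p = 0.33). UGT88A1, the most abundant member, had 223.9 ± 8.86 CPM in Col-0 and fell to 159.8 ± 5.65 in jazD (1.40-fold, adjusted p = 3.02e-08) and stayed at 169.5 ± 5.45 in jazDcdk8-1.

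The tested enzymes of glucosinolate, hydroxycinnamate, flavonol, cytokinin and sterol conjugation showed changes under 2-fold, UGT72E1 and UGT85A1 aside. UGT74B1, which glucosylates the thiohydroximate in the synthesis of glucosinolates, had 75.7 ± 1.11 CPM in Col-0, 55.6 ± 2.01 in cdk8-1, 68.7 ± 2.58 in jazD and 49.7 ± 2.52 in jazDcdk8-1. It fell through cdk8-1 by near equal amounts in both backgrounds, 1.36-fold and 1.38-fold (adjusted p = 7.3e-07 and 2.7e-07), and the difference was not called (-0.02 ± 0.07, adjusted p = 0.895). Its fall in jazD (-0.14 ± 0.05, adjusted p = 0.0262) was lost without Col-0 replicate 1 or 3, or any 1 jazD library except replicate 2 (adjusted p from 0.0508 to 0.112). UGT84A2, which makes sinapoyl glucose, had 34.9 ± 2.30, 43.4 ± 1.36, 39.4 ± 1.64 and 39.2 ± 1.52 CPM in Col-0, cdk8-1, jazD and jazDcdk8-1, and was called higher in cdk8-1 (0.31 ± 0.06, adjusted p = 0.000358). Its calls in jazD and jazDcdk8-1 against Col-0 (0.17 each) were lost without any of several single libraries, Col-0 replicate 2 giving the least (adjusted p = 0.128 and 0.177). UGT84A3, also for hydroxycinnamates, had 36.9 ± 2.06, 34.8 ± 1.89, 24.9 ± 0.479 and 32.2 ± 1.77 CPM and fell 1.48-fold in jazD (adjusted p = 2.4e-07). UGT72B1, which conjugates monolignols and foreign phenols, had 97.4 ± 2.48, 74.8 ± 2.21, 76.4 ± 4.46 and 76.1 ± 2.90 CPM and was called lower than Col-0 in all 3 mutants. UGT84A4 had 4.90 ± 1.04, 5.54 ± 0.237, 5.14 ± 0.315 and 6.51 ± 0.707 CPM, and UGT84A1 had 20, 23, 11 and 4 counts and was not tested.

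AT1G06000, annotated as a flavonol 7-O-rhamnosyltransferase, had 31.6 ± 1.67 CPM in Col-0, 49.4 ± 1.99 in cdk8-1, 52.4 ± 1.38 in jazD and 55.8 ± 4 in jazDcdk8-1. It rose in cdk8-1 (1.57-fold, adjusted p = 6.24e-08), in jazD (1.66-fold, adjusted p = 2.88e-09) and in jazDcdk8-1 (1.77-fold, adjusted p = 7.79e-10), with no call between the last pair (adjusted p = 0.234). Its expected counts were not whole in 10 libraries, which marks reads shared with another gene. UGT78D3 and UGT79B6, of the same flavonoid list, had summed counts of 3, 4, 4 and 6 and of 0, 0, 1 and 0 for the 4 genotypes. That list also holds AT4G27560, described above, and the untested AT4G27570, both by locus number and given no role here. UGT85A1, which glucosylates the cytokinin zeatin, had 13.7, 15.8 and 15.3 CPM in Col-0, 19.4, 20.3 and 18.8 in cdk8-1, 25.7, 38.2 and 25.4 in jazD and 23.7, 24.2 and 24.9 in jazDcdk8-1. One jazD library, replicate 2, stood above the rest. The rise in jazD was 2.00-fold (1.00 ± 0.12, adjusted p = 3.75e-07), and the fall from jazD to jazDcdk8-1 (-0.30 ± 0.11, adjusted p = 0.0344) was lost without jazD replicate 2 (-0.08, adjusted p = 0.423) and without any 1 jazDcdk8-1 library (adjusted p from 0.0607 to 0.083). The cytokinin N-glucosylating enzymes UGT76C1 and UGT76C2 had 11.5 ± 1.82 and 19.2 ± 1.83 CPM in Col-0 and 12.3 ± 0.609 and 15.5 ± 1.51 in jazD, the second called lower (adjusted p = 0.00407). UGT73C1 was not tested, with summed counts of 14, 9, 6 and 2 for the 4 genotypes.

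UGT73C6, for flavonols and brassinosteroids, had 2.71 ± 0.535, 3.11 ± 1.13, 1.73 ± 0.269 and 2.87 ± 0.421 CPM in Col-0, cdk8-1, jazD and jazDcdk8-1. Its call in jazD (-0.65 ± 0.25, adjusted p = 0.0417) was lost without any 1 library of Col-0 replicates 1 and 2 or of jazD (adjusted p from 0.0583 to 0.151). Expected counts of UGT73C6 were not whole in any of the 12 libraries, which marks reads shared with another gene. The sterol enzyme UGT80B1 had 28.3 ± 0.591, 33.3 ± 0.616, 35.7 ± 1.33 and 39.6 ± 0.362 CPM and was called higher than Col-0 in all 3 mutants, most in jazDcdk8-1 (1.40-fold, adjusted p = 2.72e-07). UGT80A2, the other sterol enzyme, had 30 ± 1.42, 28.1 ± 0.441, 30.3 ± 1.24 and 30.1 ± 0.942 CPM and no call in these comparisons. UGT89B1, for benzoates, had 5.10 ± 0.368, 5.36 ± 0.354, 4.71 ± 0.199 and 3.96 ± 0.0902 CPM.

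**Figure D3:**
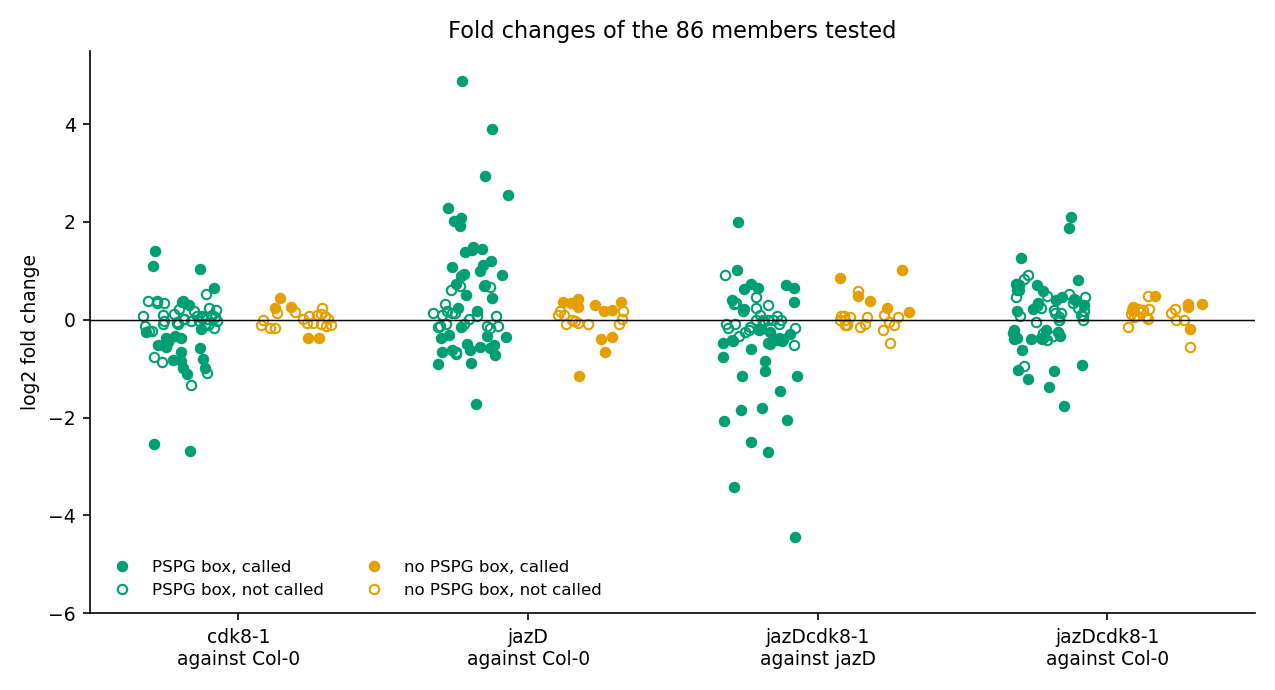
Log2 fold change (y axis) of each of the 86 members tested in 4 comparisons, split into 63 with the PSPG box (green) and 23 without it (orange); filled points were called. The points past 2 in either direction on this scale are in members with the box, such as UGT71C3 at 4.88 in jazD against Col-0 and at -4.44 in jazDcdk8-1 against jazD, and UGT76B1 at -2.69 in cdk8-1 against Col-0.

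In jazDcdk8-1 against jazD the direction turned for the members that had risen most. Of 86 members 16 were called higher and 27 lower, 50% beside 35.8% of all genes tested, with lower calls at 31.4% beside 19.0% and higher calls at 18.6% beside 16.9%. This split depends on scaling: 21 were higher and 22 lower with scaling by total counts, and 26 higher and 20 lower with limma on log2(TPM + 1), where the median of all genes moved to 0.126. Of the 86 members, 3 were called at least 2-fold higher and 12 lower (1.56% and 4.46% of all genes tested), and all 12 lower ones hold the PSPG box. Among the 63 members tested with the box 10 were higher and 27 lower, and among the 23 without it 6 were higher and 0 lower. The comparison shares the jazD libraries with jazD against Col-0, so the opposite directions in the 2 comparisons are given side by side only.

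The largest rise in that comparison was that of UGT85A3, on chromosome 1 at 7900355 to 7902427. It had 0.778, 1.05 and 1.45 CPM in Col-0, 1.90, 2.12 and 2.74 in cdk8-1, 0.817, 1.13 and 1.07 in jazD and 4.12, 3.83 and 4.21 in jazDcdk8-1. All 6 libraries labelled cdk8-1 or jazDcdk8-1 lay above the other 6. It rose 2.05-fold in cdk8-1 (1.04 ± 0.23, adjusted p = 0.00201) and 4.01-fold from jazD to jazDcdk8-1 (2.00 ± 0.22, adjusted p = 2.85e-07), and the difference of the rises fell just short of a call (0.97 ± 0.33, adjusted p = 0.0505). AT2G16890 also rose in both, from 3.26 ± 0.173 to 6.97 ± 0.756 CPM in cdk8-1 (2.13-fold, adjusted p = 4.39e-06) and from 2.99 ± 0.482 to 4.88 ± 0.607 from jazD to jazDcdk8-1 (1.63-fold, adjusted p = 0.000948). AT5G59070, the only tested member within 17 to 24 Mb of chromosome 5, had 2.48 ± 0.571, 2.69 ± 0.236, 1.55 ± 0.368 and 2.84 ± 0.191 CPM. Its fall in jazD (-0.67, adjusted p = 0.0162) was lost without Col-0 replicate 3 (adjusted p = 0.112) or jazD replicate 3 (0.0896). UGT76E1, at 24005949 to 24007907, lies just outside that stretch.

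In cdk8-1 against Col-0 10 of 86 members were called higher and 20 lower, 34.9% beside 25.5% of all genes tested. The lower calls were 23.3% of members beside 13.8% of all genes, and the higher calls 11.6% beside 11.7%. Lower than Col-0 by at least 2-fold were 3 of the 86 members (2.47% of all genes tested), UGT76B1, AT1G05675 and UGT72E1. Higher by as much were also 3 (all genes 0.992%), UGT85A3, AT2G16890 and AT2G36780, the last from 0.201 ± 0.18 to 0.55 ± 0.163 CPM, a call (1.41 ± 0.49, adjusted p = 0.0379) lost without Col-0 replicate 1 (0.159) or 3 (0.119) or cdk8-1 replicate 2 (0.142) or 3 (0.071). AT1G05675 fell 5.81-fold (-2.54 ± 0.53, adjusted p = 0.00106), on summed counts of 59 and 10. A few members were lower than Col-0 in each of the mutants by the test. AT2G18560 had 17.3 ± 1.08 CPM in Col-0, 9.78 ± 0.592 in cdk8-1, 11.8 ± 1.33 in jazD and 8.42 ± 0.335 in jazDcdk8-1. AT1G01390 had 9.28 ± 0.680, 5.16 ± 0.209, 5.66 ± 0.809 and 3.97 ± 0.293 CPM, and UGT73B1 had 17.6 ± 2.12, 10.1 ± 1.91, 11.5 ± 1.69 and 8.54 ± 0.975 CPM. The falls from Col-0 to jazDcdk8-1 were 2.05-fold for AT2G18560, 2.33-fold for AT1G01390 and 2.06-fold for UGT73B1 (adjusted p = 9.21e-09, 6.45e-08 and 1.46e-06). AT2G18570, beside AT2G18560 on the chromosome, ran from 11.6 ± 1.39 CPM in Col-0 to 6.14 ± 0.610 in jazDcdk8-1 (1.90-fold, adjusted p = 4.27e-06).

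Set against Col-0, jazDcdk8-1 had 23 members called higher and 19 lower, 48.8% beside 32.4% of all genes tested. Higher by at least 2-fold were 3 of the 86 members (1.94% of all genes tested), AT2G36780 (2.11 ± 0.44), UGT85A3 (1.88 ± 0.21) and AT2G29710 (1.27 ± 0.27). Lower by at least 2-fold were 5 (all genes 2.73%), UGT74F1, AT3G55710, AT1G01390, UGT73B1 and AT2G18560. UGT71C3, UGT71B5, UGT71B6, UGT71C2 and AT1G05675, each at least 3-fold up in jazD, were not called against Col-0 here (adjusted p from 0.131 to 0.854). UGT72E1 and AT2G36780, also at least 3-fold up in jazD, were called above Col-0. AT3G46690, which rose in jazD as well, had 0.389 ± 0.226 CPM in jazDcdk8-1 and 0.219 ± 0.0745 in Col-0.

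The effect of cdk8-1 could be compared between the backgrounds with no library shared, as the change from jazD to jazDcdk8-1 minus the change from Col-0 to cdk8-1. This difference was called for 25 of 86 members, 29.1% beside 16.5% of all genes tested, with 10 positive and 15 negative. The positive ones made up 11.6% of members beside 8.16% of all genes. The negative ones made up 17.4% of members beside 8.39% of all genes. A negative difference past 2-fold was called for 6 of the 86 members (1.53% of all genes tested), namely UGT71C3, UGT71B5, UGT74F1, UGT71C2, AT2G36780 and UGT73B5. No positive difference passed 2-fold (all genes 0.845%), and AT3G55710 came closest (0.99 ± 0.22, adjusted p = 0.00261). UGT71B5 (-2.66 ± 0.75, adjusted p = 0.0171) lost its call without cdk8-1 replicate 2 (adjusted p = 0.125), and UGT71C2 (-2.30 ± 0.64, adjusted p = 0.0169) without cdk8-1 replicate 2 (0.0884) or 3 (0.0624). UGT74F1 (-2.47 ± 0.55, adjusted p = 0.00303) kept its call without each library in turn. AT1G05675 fell by similar amounts in both backgrounds, 2.54 ± 0.53 and 2.50 ± 0.31, and its difference was 0.04 ± 0.38 (adjusted p = 0.962).

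**Figure D4:**
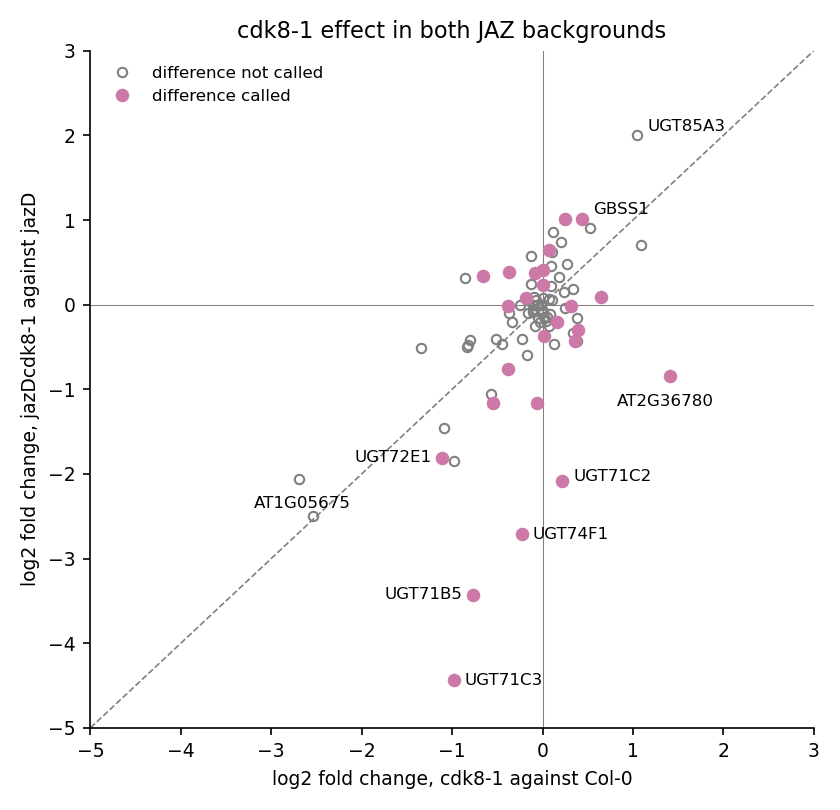
Log2 fold change from Col-0 to cdk8-1 (x axis) and from jazD to jazDcdk8-1 (y axis) for the 86 members tested; the dashed line marks equal changes and filled points are the 25 members whose difference was called. UGT71C3, UGT71B5, UGT74F1 and UGT71C2 lie far below the line, while AT1G05675 lies on it.

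Neighbours on the chromosome shared calls in some clusters and differed in others. AT2G18560 and AT2G18570 were both lower than Col-0 in jazDcdk8-1. UGT71B5 and AT4G15260 were both called higher in jazD and lower in jazDcdk8-1 than in jazD. AT4G15260 was also called lower in cdk8-1, and of this pair only UGT71B5 had a called interaction. In all, 69 members form 23 clusters of neighbours within 20 kb. UGT71C5, UGT71C4 and UGT71C3 follow each other on chromosome 1, and UGT71C4 and UGT71C3 proteins are 64.2% identical. UGT71C4 had 56.2, 48.6 and 57.2 CPM in Col-0 and 56.3, 48.1 and 49 in jazD (-0.08 ± 0.06, adjusted p = 0.351), where UGT71C3 rose 29.4-fold. Like both neighbours, UGT71C4 was lower than Col-0 in cdk8-1, with 41.7, 43.5 and 42.8 CPM. Like them it was also called lower in jazDcdk8-1 than in jazD, with 45.3, 44.6 and 43.2 CPM. That call was lost without jazD replicate 1 (adjusted p = 0.133) or jazDcdk8-1 replicate 3 (0.0739), and with scaling by total counts (0.103). UGT71C1 and UGT71C2, neighbours on chromosome 2 with 79.9% identity, also differed: UGT71C1 had 0.303 ± 0.0836 CPM in Col-0 and 0.448 ± 0.310 in jazD (adjusted p = 0.353). In the cluster of UGT85A7, UGT85A2, UGT85A5, UGT85A3 and UGT85A1, with 73.9% to 80.8% identity between pairs, UGT85A2 and UGT85A1 rose in jazD. UGT85A5 had 9.61 ± 0.119, 8.79 ± 1.02, 9.18 ± 1.59 and 10.8 ± 0.684 CPM in Col-0, cdk8-1, jazD and jazDcdk8-1 and was not called in any comparison of 2 genotypes. In the cluster with UGT71B6, HYR1 fell in jazD from 31.3 ± 1.46 to 24.8 ± 1.69 CPM (adjusted p = 0.000149), UGT71B1 had 29.3 ± 1.89 and 30.8 ± 0.974 CPM (adjusted p = 0.373), and AT3G21790 rose from 17 ± 0.686 to 24 ± 1.59 CPM (adjusted p = 2.36e-05). These differences between neighbours were not tested themselves. Some copies are very alike, such as AT4G27560 and the untested AT4G27570 with 94.7% identity. The expected counts of both were whole in every library, so neither bears the mark of shared reads. How reads of such copies were assigned was not tested. Expected counts of HYR1 were not whole in any of the 12 libraries, which marks reads shared with another gene.

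Other named members shifted by less than 2-fold or had no call. AT2G36970 had 10.3 ± 0.699 CPM in Col-0, 13.1 ± 1.38 in cdk8-1, 19 ± 1.28 in jazD and 14.2 ± 1.59 in jazDcdk8-1, and the effect of cdk8-1 had opposite signs in the backgrounds (0.36 and -0.43). Its rise in cdk8-1 (adjusted p = 0.0109) was lost without Col-0 replicate 3 (0.0554) or cdk8-1 replicate 1 (0.0762). AT4G09500 had 10.3 ± 1.32, 7.97 ± 0.381, 9.78 ± 0.389 and 12.9 ± 1.23 CPM in the same order, with effects of -0.37 and 0.39. Its fall in cdk8-1 (adjusted p = 0.0115) was lost without Col-0 replicate 2 (0.077) or cdk8-1 replicate 1 (0.0503). AT2G30150 was higher through cdk8-1 in both backgrounds, with 16.8 ± 1.05, 20.3 ± 0.707, 13.2 ± 1.08 and 18.5 ± 0.911 CPM. AT5G03490, on the benzoate list by its locus number and given no role here, had 12.2 ± 1.02, 10.4 ± 0.655, 12.2 ± 0.97 and 9.19 ± 0.563 CPM. It was called lower in jazDcdk8-1 than in jazD and in Col-0 (1.33-fold and 1.32-fold). AT5G38010 and AT5G38040 had 3.05 ± 0.474 and 2.31 ± 0.271 CPM in jazDcdk8-1 against 2.01 ± 0.166 and 1.67 ± 0.101 in Col-0.

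**Figure D5:**
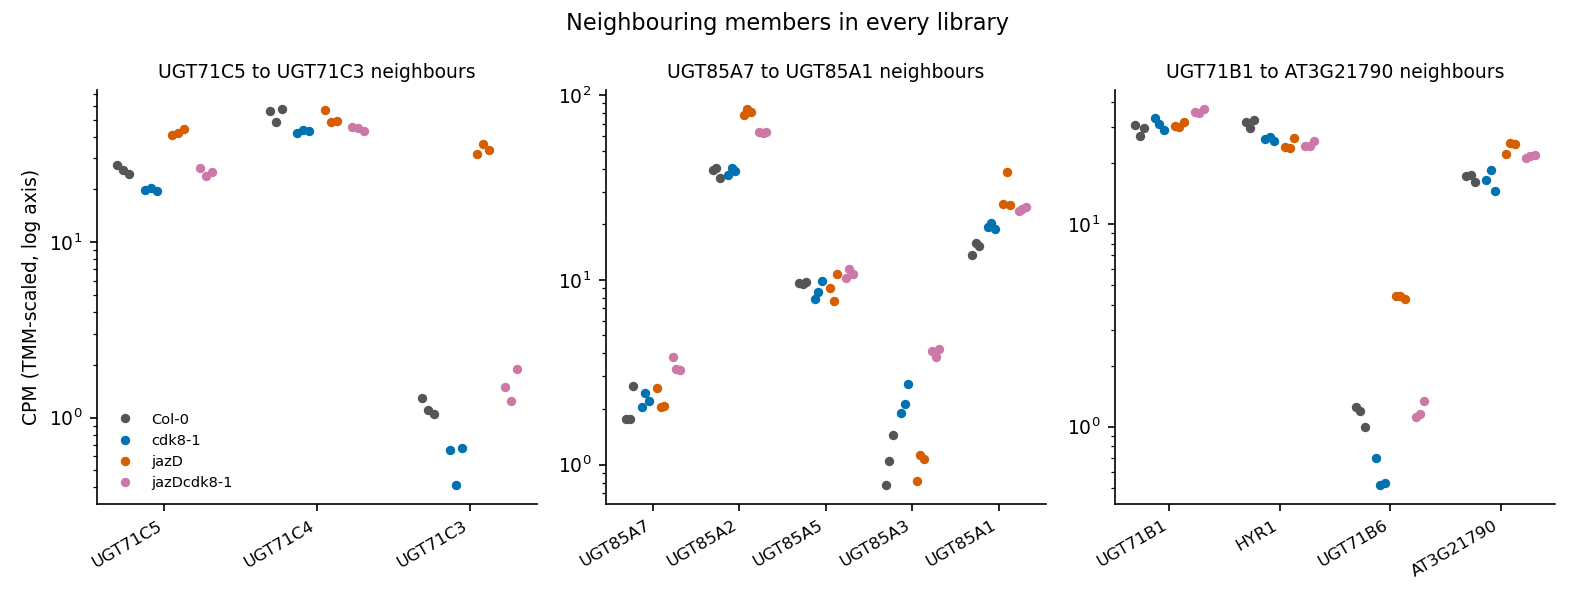
CPM in every library (points, log axis) for the members of 3 clusters of neighbouring genes, coloured by genotype. UGT71C3 and UGT71B6 are high in jazD alone, while UGT71C4 and UGT71B1 beside them show overlapping values in Col-0 and jazD.

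The 22 enzymes that supply UDP-sugars, all tested, were read beside the family. In jazD 2 of 22 were called higher (9.09%, all genes 21.8%) and 10 lower (45.5%, all genes 20.9%). None rose 2-fold, and SUS4, a sucrose synthase, fell 2.98-fold, from 3.97 ± 0.668 to 1.32 ± 0.257 CPM. UGP1 and UGP2, the main makers of UDP-glucose, had 176.1 ± 8.45 and 48.6 ± 1.16 CPM in Col-0, 237.2 ± 5.86 and 63.5 ± 1.74 in cdk8-1, 146.5 ± 5.18 and 33.2 ± 1.94 in jazD and 205.7 ± 0.867 and 47.9 ± 0.733 in jazDcdk8-1. Both fell in jazD (-0.27 ± 0.04 and -0.55 ± 0.05, adjusted p = 4.98e-05 and 3.39e-08) and rose through cdk8-1 in both backgrounds. SUS1, also a sucrose synthase, had 46.9 ± 2.08, 28.8 ± 3.10, 27.6 ± 1.39 and 23.2 ± 2.74 CPM and was lower than Col-0 in all 3 mutants. The epimerase UGE3 had 4.39 ± 0.801, 8.52 ± 1.24, 5.89 ± 0.339 and 8.72 ± 1.07 CPM and rose in cdk8-1 (0.96 ± 0.14, adjusted p = 2.16e-05). In cdk8-1 4 of the 22 were higher and 4 lower (18.2% each, all genes 11.7% and 13.8%), with 11 higher under scaling by total counts. In jazDcdk8-1 against jazD 6 were higher and 3 lower (27.3% and 13.6%, all genes 16.9% and 19.0%), with 11 and 1 under that scaling. In jazDcdk8-1 against Col-0 5 were higher and 7 lower (22.7% and 31.8%, all genes 16.3% and 16.1%), with 3 higher by DESeq2.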

How the data were processed

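The authors deposited RSEM expected counts (version 1.2.25, default parameters) and TPM values from the same run, per the file headers. The genome is TAIR10, per the submitters' processing notes. The aligner, any trimming, whether strand was used and the annotation release are not given in the sources used here, so reads of antisense or overlapping genes cannot be told apart. Of the deposited expected counts 3.423% were not whole, which marks reads shared between genes: among members 10 had such counts.

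Expected counts were rounded and fitted with edgeR 4.0.16 in R 4.3.3, with TMM scaling, filterByExpr, 1 quasi-likelihood model of all 12 libraries and a term per genotype. P-values were adjusted over 19059 genes within each comparison by the Benjamini-Hochberg method, at a threshold of 0.05. Errors of log2 fold changes are the absolute change divided by the square root of F, and are approximate at low counts. CPM are on TMM-scaled libraries. TPM, which correct for length, were used to rank genes. With totals of 17583467 to 21030374 counts per library, 1 CPM is worth close to the same number of reads in each, and members below that level rest on few reads. Replicate numbers were not used as pairs (see the check of pairing among the alternatives). The script was tested on simulated counts.

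Gene positions, symbols, promoter bases and proteins come from RefSeq TAIR10.1, where all 126 members were found. The pattern for the PSPG box was set after the proteins were seen; 73 of the 100 members hold its strict core. Clusters join members within 20 kb. Protein identity was taken over aligned positions, with gaps left out. Members, lists of roles, the list of UDP-sugar enzymes and the leaf, root and flower markers were chosen with earlier results of these data known. Named genes are, per comparison, up to 8 called members of each sign by size of change, if the mean reached 1 CPM in 1 group, all members on a role list, and the 10 with the highest TPM, 69 in all. UGT85A4, UGT85A5, UGT71C1, AT2G36770, AT1G78800, TPS6, LEW3, SETH2, HYR1, UGT71B1, UGT74F2 and the enzymes named for UDP-sugar supply were added after their values were seen, as neighbours or examples. Alternatives were RLE scaling in edgeR, scaling by total counts, other filters, DESeq2 1.42.0, limma 3.58.1 on log2(TPM + 1) and log2(TPM + 0.1), a block for replicate number, models of 2 groups, removal of members in 17 to 24 Mb of chromosome 5, and each library left out in turn.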

Additional observations from a re-analysis of the deposited data

Results flagged for a closer look

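The change through cdk8-1 differed between the 2 JAZ backgrounds for 25 members, by edgeR's test of the interaction term with adjustment over all genes. The values here are differences of log2 changes, jazD background minus wild type background. The largest negative differences were those of UGT71C3 (-3.47), UGT71B5 (-2.66), UGT74F1 (-2.47), UGT71C2 (-2.30) and AT2G36780 (-2.25), all from low levels in Col-0. UGT73B5 followed at -1.11, a call lost when any of 8 single libraries was left out (adjusted p from 0.0509 to 0.097). In AT2G36970 (-0.78), UGT85A1 (-0.69), UGT84A2 (-0.32) and AT1G06000 (-0.56) cdk8-1 alone was above Col-0, and in jazDcdk8-1 the level was near or below that of jazD. In UGT72E1 (-0.70), UGT85A4 (-0.61), UGT71C5 (-0.38) and UGT85A2 (-0.38) the fall from jazD to jazDcdk8-1 was larger than any fall in cdk8-1. AT1G78800 (-0.37) was not called in either change on its own (0.16 and -0.21).

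Positive differences were found for AT3G55710 (0.99), AT4G09500 (0.76) and AT5G05890 (0.76). They were also found for UGT74D1 (0.58), GBSS1 (0.57), UGT84A3 (0.46) and AT2G31790 (0.40), which were each lower in jazD than in Col-0. In UGT72B1 (0.37) and UGT88A1 (0.27) cdk8-1 was below Col-0 and jazDcdk8-1 was not called against jazD. DGD1 (0.22, adjusted p = 0.0485) lost its call in nearly every alternative.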

How the results depend on the processing

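Counts of members called kept within 1.5 times the reported value under the alternatives tried, with the exception of jazDcdk8-1 against jazD: 26 were called higher with limma on log2(TPM + 1) and 26 on log2(TPM + 0.1), and 17 lower with the latter. There the median of all genes moved to 0.126 and 0.146. Without 1 library the counts ran, higher then lower, from 8 to 10 and 19 to 21 in cdk8-1, 27 to 35 and 17 to 20 in jazD, 13 to 17 and 24 to 29 in jazDcdk8-1 against jazD, 16 to 24 and 17 to 19 in jazDcdk8-1 against Col-0, and 9 to 12 and 12 to 16 for the interaction.

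Among UDP-sugar enzymes, calls higher in cdk8-1 were 11 with total counts and 8 with either limma setting. In jazD they were 1 with either limma setting and 1 to 2 without 1 library. In jazDcdk8-1 against jazD 11 were higher with total counts or limma, 1 lower with total counts and 0 with limma (1 to 3 without 1 library). Against Col-0 3 were higher with DESeq2 and 3 to 5 without 1 library.

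For the 166 called results of single named members, 3279 of 3459 values kept the call, 180 lost it and 0 reversed. The cause of these moves was not tested. Libraries with the same number did not deviate together (correlations from -0.097 to 0.074 over 18 pairs of libraries, and in 3 of 18 cases a library correlated best with its own number). With a replicate block 33 members were higher and 19 lower in jazD, 10 and 20 in cdk8-1, 16 and 27 in jazDcdk8-1 against jazD, 23 and 19 in jazDcdk8-1 against Col-0 and 10 and 15 for the interaction; UGT73C6 in jazD and DGD1 for the interaction lost their calls (adjusted p = 0.052 and 0.0642).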
